A study of Mus musculus with 18 samples.

Results

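Gene expression in digit tips of mouse embryos without Fzd6 was compared between E16.5 and E18.5, the last interval before birth that the study sampled. The comparison rests on 6 of the 18 arrays of the series, chosen by their labels alone: 3 from Fzd6-/- embryos at E16.5 (KO E16.5) and 3 from Fzd6-/- embryos at E18.5 (KO E18.5). All 6 embryos were of the C57BL/6 strain with no treatment labelled, came from matings of Fzd6+/- parents, and are labelled as mixed sex. Wild-type embryos of the same strain at E16.5 and E18.5 (WT E16.5 and WT E18.5, 3 arrays each) served for comparison, and the E14.5 groups of both genotypes (3 arrays each) give the earlier course. The design text names tips of the forelimb digits, and in another place dissected forelimbs, with RNA from each embryo. The labels give each array an individual of its own. For each probe the p-values use a spread pooled over all 6 groups of the series, not that of the groups compared alone. These groups were not equally spread: the median SD of a probe over 3 arrays ran from 0.07 in WT E14.5 to 0.20 in WT E18.5.

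Fzd6 encodes a Frizzled receptor for Wnt ligands, best known for its part in planar cell polarity, the alignment of cells and hairs within the plane of an epithelium. Its loss causes malformed nails in people and malformed claws in mice. The nail forms from the epithelium over the digit tip: cells of the nail matrix divide, fill with hard keratins and flatten into the nail plate, and in the mouse much of this happens in the days before birth.

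Each array carried 60-base probes. RNA of the embryo was labelled with Cy3 and hybridised together with Cy5-labelled RNA of cultured cell lines and embryonic stem cells, a reference that was the same on every array. A level below is log2 of Cy3 over Cy5 after background correction and loess normalization, so that 0 means as bright as the reference, and a step is the mean level at E18.5 minus the mean level at E16.5. Of 42006 probes, 27989 were tested, which means that all 3 arrays of some group read them well above background in the Cy3 channel. A probe was called where limma's Benjamini-Hochberg adjusted p over all 27989 probes was under 0.05. Dyes were not swapped, so a probe's dye effect cancels in a step but not in a level.

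By the scanner software's call, 64.6%, 66.0% and 68.0% of probes exceeded background in the Cy3 channel on the KO E16.5 arrays (replicates 1 to 3). On the KO E18.5 arrays it was 62.2%, 59.8% and 65.0%, lower for each replicate number. No probe was saturated. The SD of a probe over 3 arrays had a median of 0.12 in KO E16.5 and 0.12 in KO E18.5, against 0.16 in WT E16.5 and 0.20 in WT E18.5. Arrays of the same KO group correlated at r = 0.961 to 0.985 over probes. One wild-type array stood apart: WT E18.5 replicate 1 was at least 2-fold above both other arrays of its group at 255 probes and at least 2-fold below both at 682. The main counts that rest on WT E18.5 are therefore also given without it. Among the KO arrays KO E18.5 replicate 1 had the most such probes, 133 above and 0 below. In the KO step both stages lay on the same slides, replicates 1 and 2 on 1 slide and replicate 3 on another, whereas WT E16.5 and WT E18.5 shared a slide only for replicate 3.

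The files used here give probes by ID and sequence, with no gene name, so each probe is identified below by both. The level of Fzd6 itself and the markers of nail and other cell types were not analysed here, and the labelled tissue was not checked against markers. The sequences of 8 probes with large changes from E16.5 to E18.5 in KO follow, 5′ to 3′ as the scanner files list them. The first 4 were well above background on all 6 KO arrays, and the last 4 on all arrays of 1 stage and none of the other. Capitals mark AATAAA, the letters of the common signal for adding a poly(A) tail, which lies close to the end of many transcripts.
Z00040994-1: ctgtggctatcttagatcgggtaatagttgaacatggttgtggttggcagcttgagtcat
Z00028697-1: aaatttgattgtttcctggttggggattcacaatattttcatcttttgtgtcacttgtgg
Z00034626-1: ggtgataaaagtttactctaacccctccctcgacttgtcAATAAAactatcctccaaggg
Z00076581-1: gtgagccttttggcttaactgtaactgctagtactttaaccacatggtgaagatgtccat
Z00076319-1: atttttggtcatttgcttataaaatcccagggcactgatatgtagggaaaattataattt
Z00071978-1: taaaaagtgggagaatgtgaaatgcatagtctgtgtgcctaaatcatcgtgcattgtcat
Z00024117-1: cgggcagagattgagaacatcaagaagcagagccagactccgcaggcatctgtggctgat
Z00037296-1: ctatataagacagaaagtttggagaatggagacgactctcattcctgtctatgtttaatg

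The transcripts of digit tips without Fzd6 changed widely between E16.5 and E18.5. In all, 7524 of 27989 probes were called (26.9%), 3866 higher at E18.5 (13.8%) and 3658 lower (13.1%). At least 2-fold, 1025 probes rose (3.66%) and 310 fell (1.11%), and at least 4-fold it was 220 against 36. The larger number of rises depended on the normalization: with each array centred on its median in place of loess, 450 rose and 600 fell at least 2-fold. At the far end, 33 called probes rose at least 16-fold, of which 12 rose at least 32-fold, and 2 fell at least 16-fold. The tissue was sampled whole, so fewer cells of a type and less RNA per cell cannot be told apart.

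The arrays of the stages did not overlap at 12623 probes (45.1%), and at 97.1% of the called probes. The median step of all tested probes was -0.01. The share of called probes that were higher was 51.4%, and with median centring it was 32.9% of 2597 called probes, while the median of all probes moved to -0.17. With leave-one-out of the KO arrays the number of called probes lay between 5121 and 7925.

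**Figure D1:**
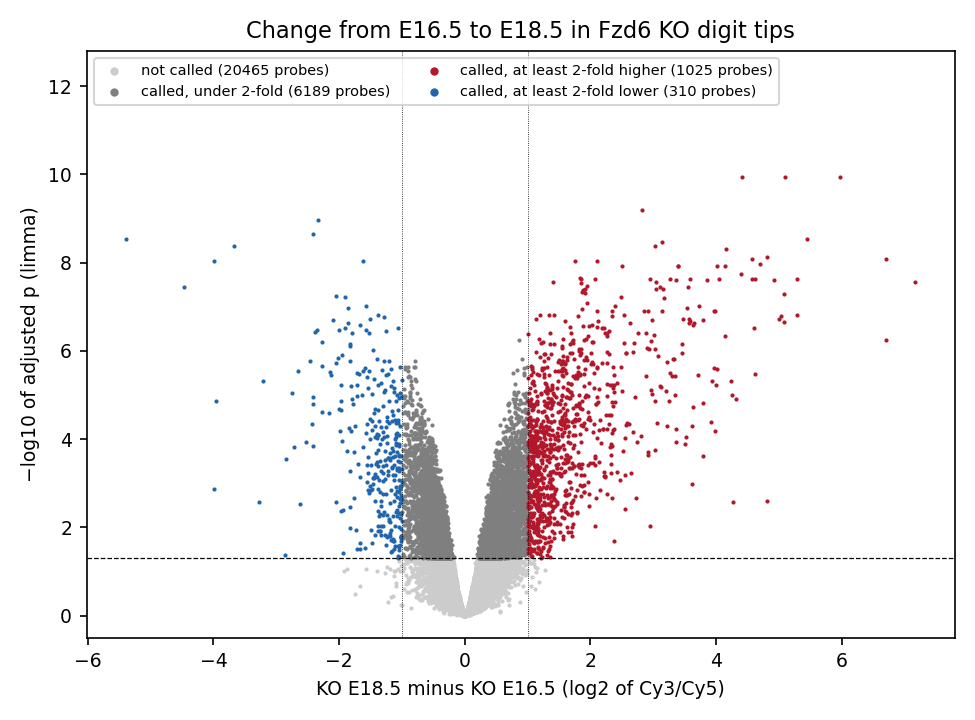
Each dot is 1 of 27989 tested probes, with the KO step on the x axis (log2 of Cy3/Cy5, KO E18.5 minus KO E16.5) and −log10 of limma's adjusted p on the y axis; the dashed line marks an adjusted p of 0.05 and the dotted lines a 2-fold change. The red dots (1025 probes at least 2-fold higher) reach further from 0 and are more numerous than the blue dots (310 probes at least 2-fold lower).

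The largest rise among probes measured on all 6 KO arrays was that of Z00040994-1. Its level was 0.15, -0.08 and 2.08 in KO E16.5 (replicates 1 to 3) and 7.72, 7.84 and 8.10 in KO E18.5. All KO E18.5 arrays were far above all KO E16.5 arrays, among which replicate 3 was the highest. The step between the means of 3 and 3 arrays was 7.17 ± 0.44, a 143.7-fold rise (limma, adjusted p = 2.75e-08). This SE, like each SE of a step below, comes from the fit of all 18 arrays. The SD of the probe's own arrays was 1.19 in KO E16.5 and 0.19 in KO E18.5. In a fit of the 6 KO arrays alone limma's adjusted p was 5.29e-05. In wild type the same probe was already at 6.51, 5.99 and 6.32 at E16.5, and at 6.14, 6.56 and 7.66 at E18.5. The wild-type arrays of the 2 stages overlapped, and the WT step of 0.51 was not called (adjusted p = 0.451). At E14.5 it did not exceed background on a single array of either genotype. The high level that wild-type arrays showed at E16.5 was thus seen in KO at E18.5 and not at E16.5.

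Z00028697-1 rose in both genotypes. It stood at 1.77, 1.92 and 3.25 in KO E16.5 and at 8.96, 8.66 and 9.41 in KO E18.5, with no overlap. The KO step was 6.70 ± 0.55 (SE; adjusted p = 5.52e-07). In wild type it went from 3.43, 2.25 and 3.54 to 6.39, 7.77 and 9.29, a step of 4.75. The difference of 1.95 ± 0.78 (SE) between the steps was not called (adjusted p = 0.157), nor without WT E18.5 replicate 1 (1.24, adjusted p = 0.243). It was called with no background subtraction (1.98, adjusted p = 0.0423) and in the Cy3 channel alone (2.00, adjusted p = 0.0156). This probe too was not above background at E14.5 in any array.

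Z00034626-1 fell most. Its level was 1.60, 2.30 and 1.81 in KO E16.5 and -3.35, -3.38 and -3.72 in KO E18.5, a step of -5.39 ± 0.25 (SE; adjusted p = 2.95e-09). The wild-type arrays fell alike, from 2.03, 2.02 and 1.77 to -2.26, -3.13 and -3.05, and the difference between the steps was not called (-0.63, adjusted p = 0.32). In both genotypes the E14.5 arrays lay between these levels, at -2.50 to -1.54 in KO and -0.54 to -0.29 in wild type, so that E16.5 was a peak. Z00076581-1 showed another course, with no peak. It stood at 0.16, 1.64 and 2.45 in KO E16.5 and at -1.72, -2.52 and -3.49 in KO E18.5, a step of -3.99 ± 0.77 (SE; adjusted p = 0.00137). Its KO arrays varied widely within each stage, and its mean was higher still at E14.5, 3.00 in KO.

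Other probes passed the call of above background in KO E18.5 but not in KO E16.5, or the reverse. Well above background on all 3 KO E18.5 arrays and on no KO E16.5 array were 135 probes, of which 116 were called higher. The reverse held for 490 probes, of which 139 were called lower. The stages also differed in how many probes were detected at all. On all 3 arrays of the stage 26241 probes were above background in KO E16.5 and 24631 in KO E18.5. Of all tested probes 13.8% were called higher and 13.1% lower. The arrays of the stages did not overlap at 115 of the called rising probes and 136 of the called falling ones. The same held for 97.1% of all called and 45.1% of all tested probes. Where a stage was not well above background its level is not measured, so the fitted ratios of such probes depend on the background correction and no minimum fold is given for them.

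Z00076319-1 is the first of these. It measured 0.19, 0.25 and 0.33 in KO E16.5, where no array was above background, and 6.66, 5.98 and 6.06 in KO E18.5. The fitted step was 5.98 (adjusted p = 1.18e-10). In wild type all 3 E16.5 arrays were above background, at 1.52, 0.81 and 1.41, and the E18.5 arrays reached 6.01, 6.68 and 6.09. Z00071978-1 behaved alike: 0.20, -0.02 and 0.25 in KO E16.5, with none above background, and 7.61, 6.31 and 6.61 in KO E18.5, a fitted step of 6.70 (adjusted p = 8.16e-09). Its WT E16.5 arrays were above background too, at 1.07, 0.50 and 1.14. For neither probe was the difference between the KO and WT steps called (0.96, adjusted p = 0.0635, and 0.99, adjusted p = 0.265). With Agilent's processed signals both differences were called, 3.59 (adjusted p = 0.000397) and 2.42 (adjusted p = 0.0197), and with no background subtraction that of Z00076319-1 was (1.21, adjusted p = 0.00363).

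Among the probes lost, Z00024117-1 went from 3.63, 4.08 and 3.74 in KO E16.5 to 0.10, 0.17 and 0.19 in KO E18.5, a fitted step of -3.67 (adjusted p = 4.16e-09). Z00037296-1 went from 2.98, 3.84 and 3.59 to -0.98, -0.98 and -1.02, a fitted step of -4.46 (adjusted p = 3.55e-08). Both fell in wild type as well, with WT steps of -2.87 and -3.40. Both had also been lower at E14.5 than at E16.5: in KO their E14.5 means were 0.25 and 0.26. As with Z00034626-1, the level peaked at E16.5 in both genotypes.

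**Figure D2:**
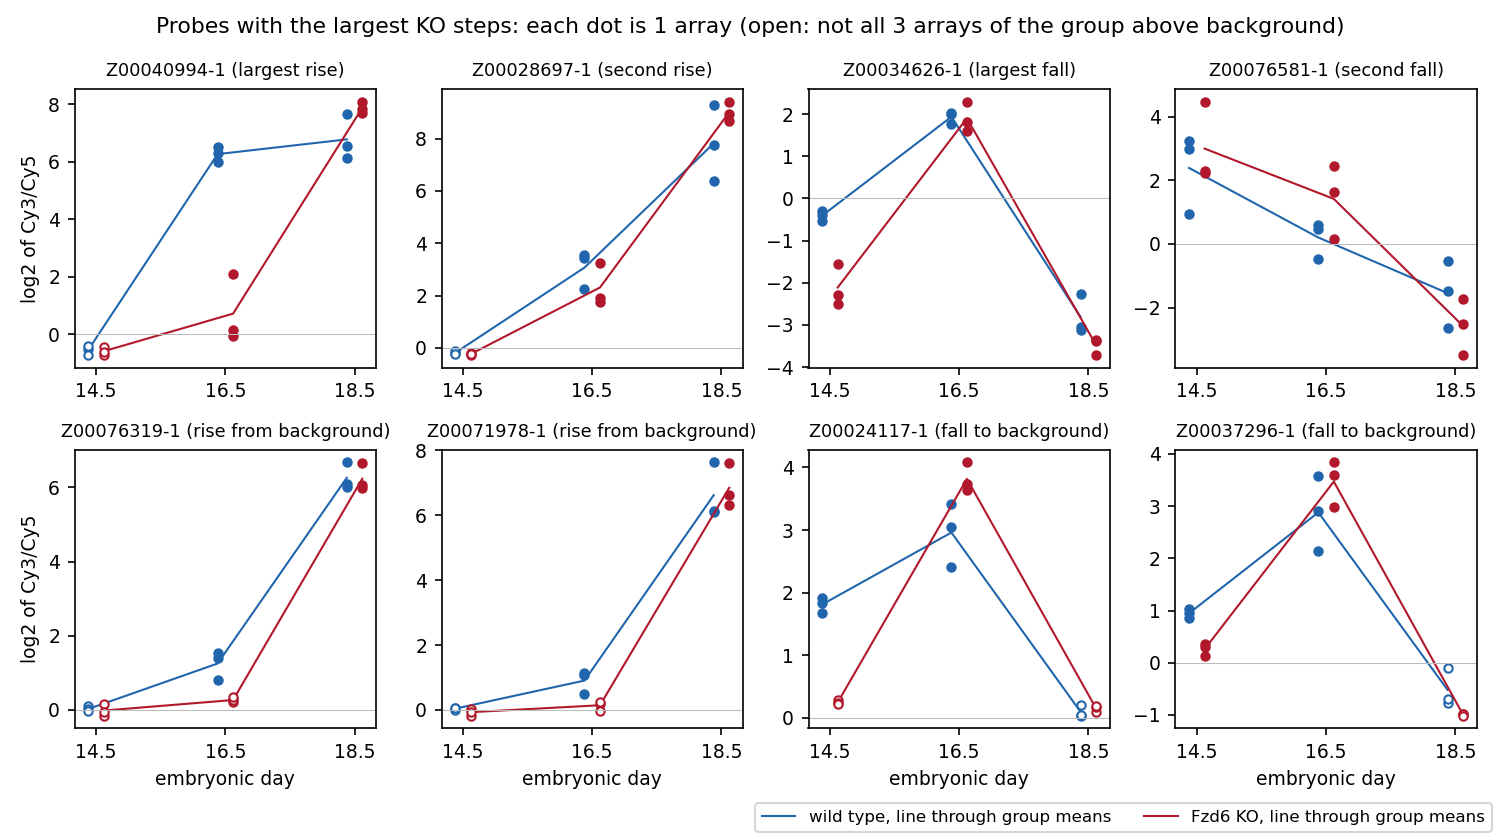
Levels (log2 of Cy3/Cy5, y axis) against embryonic day (x axis) for 8 probes with large changes, 1 dot per array, red for Fzd6 KO and blue for wild type, with lines through the means of 3 arrays and open dots where not all 3 arrays of the group were well above background. Z00040994-1 is near 0 in KO at E16.5 (mean 0.72) but near its final level in wild type (mean 6.27), whereas Z00034626-1, Z00024117-1 and Z00037296-1 peak at E16.5 in both genotypes.

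The wild-type arrays, whose levels do not enter the KO step but which share its filter and its estimate of the spread, show when the same transcripts moved with Fzd6 present. The 1025 probes that rose at least 2-fold in KO had a median KO step of 1.40. In wild type their median change was 0.77 from E14.5 to E16.5 and 0.56 from E16.5 to E18.5, together 1.40 from E14.5 to E18.5. Over all tested probes these 3 wild-type medians were -0.04, -0.01 and -0.03. On single arrays the median level of the list was 0.02, -0.04 and 0.10 in KO E16.5 and 1.59, 1.60 and 1.62 in KO E18.5. In wild type it was 0.63, 0.34 and 0.53 at E16.5 and 0.54, 1.32 and 1.01 at E18.5. The list was chosen for low levels in KO E16.5 and high levels in KO E18.5, so where the KO medians lie beside the wild-type ones is partly set by that choice. The lowest of these, 0.54, belonged to WT E18.5 replicate 1, and without that array the median WT step was 0.74.

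Within the list, 289 probes (28.2%) were called higher in wild type from E14.5 to E16.5 and not called afterwards, 191 (18.6%) only from E16.5 to E18.5, and 270 (26.3%) in both intervals. Over all tested probes the same classes held 8.22%, 4.91% and 1.66%. A further 231 of the 1025 (22.5%) were called in neither wild-type interval. Called lower in wild type from E16.5 to E18.5 were 40, most of which (37) had been called higher in the interval before. In all, 465 of the list (45.4%, against 7.38% of all tested probes) were called higher in the WT step, and 605 (59.1%, against 12.9%) without WT E18.5 replicate 1. Without that array the first 3 classes held 232, 217 and 384 of the 1023 probes of the list still tested, against 8.67%, 8.17% and 2.85% of all, and 158 were called in neither interval.

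The 310 probes that fell at least 2-fold in KO mirrored this. Their median KO step was -1.33, and their median wild-type change was -0.86 from E14.5 to E16.5 and -0.68 from E16.5 to E18.5. Median levels were 1.47, 1.55 and 1.46 in KO E16.5, close to the 1.45, 1.39 and 1.40 of KO E14.5, and 0.13, 0.12 and 0.18 in KO E18.5. In wild type they had already come down to 1.20, 0.69 and 1.08 by E16.5 and were 0.09, 0.38 and 0.32 at E18.5. This list was chosen for high levels in KO E16.5 and low levels in KO E18.5. Where the KO medians lie beside the others is partly set by that choice. Of the list, 97 (31.3%) were called lower in wild type only in the first interval, 22 (7.1%) only in the second, and 87 (28.1%) in both. Over all tested probes these classes held 12.9%, 5.26% and 1.89%. The WT step was called lower at 163 (52.6%, against 9.96% of all) and higher at 0, or lower at 138 (44.5%, against 10.4%) without WT E18.5 replicate 1. Without that array the 3 classes held 121, 16 and 67 probes.

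The steepest falls had a different earlier course. Of the 36 probes that fell at least 4-fold in KO, 17 (47.2%) were called higher in wild type from E14.5 to E16.5 and then lower from E16.5 to E18.5. Over all tested probes that pattern held for 2.82%, and over the 310 for 17.4%. Without WT E18.5 replicate 1 it was 18 of the 36, against 2.84% of all. Median levels of the 36 in KO were 0.40, 0.90 and 0.29 at E14.5, 2.16, 2.31 and 2.35 at E16.5, and -0.09, -0.10 and 0.15 at E18.5. In wild type they were 0.97 to 1.32, then 1.64 to 2.02, then 0.05 to 0.18. Both genotypes thus had the highest median at E16.5. In KO the choice of the list sets E16.5 above E18.5 and favours high E16.5 levels beside E14.5. The wild-type arrays did not enter that choice. The 220 probes that rose at least 4-fold were chosen to be higher in KO E18.5, so a KO peak at E16.5 was not possible for them. Their medians were 0.02, 0.02 and 0.19 in KO E16.5 and 3.14, 3.07 and 3.22 in KO E18.5. In wild type, which did not enter the choice, they were 1.40, 0.83 and 1.11 at E16.5 and 1.74, 2.79 and 2.53 at E18.5, with no peak at E16.5.

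**Figure D3:**
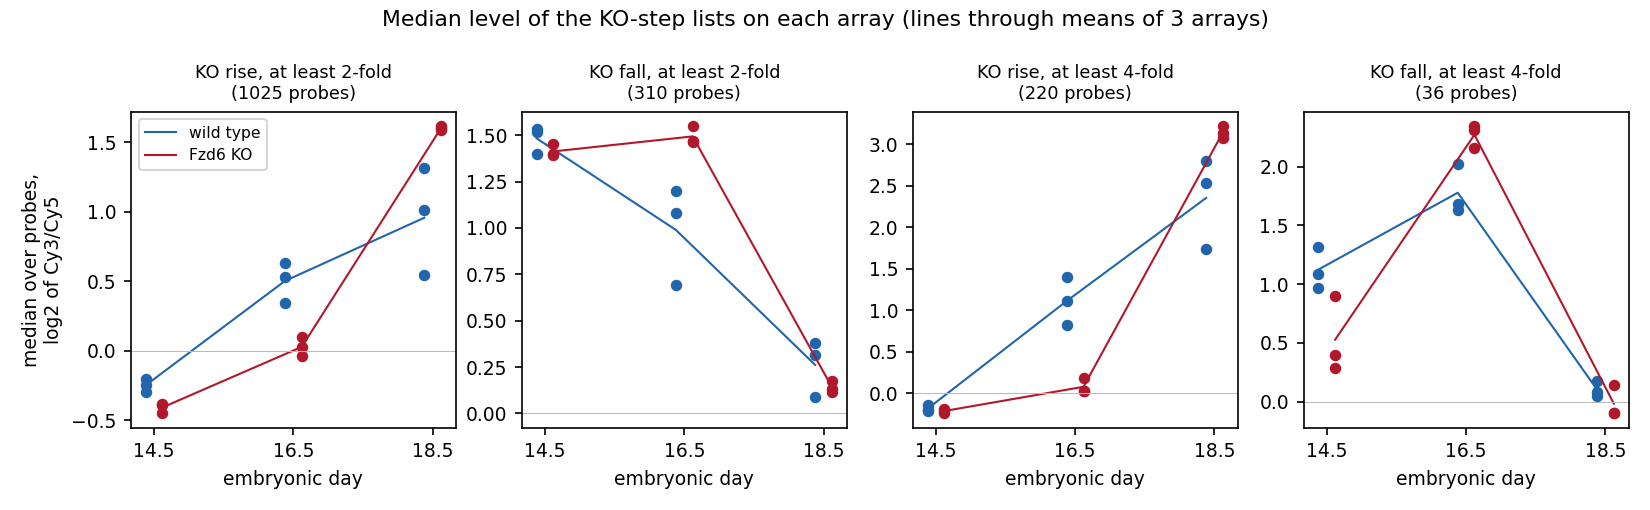
Median level over the probes of a list (log2 of Cy3/Cy5, y axis) on each array against embryonic day (x axis), for probes that rose or fell at least 2-fold or 4-fold in the KO step, red for Fzd6 KO and blue for wild type, with lines through the means of 3 arrays. The lists were chosen on the KO arrays at E16.5 and E18.5; in wild type the 1025 rising probes are already at 0.34 to 0.63 at E16.5, and the 36 steepest falls peak at E16.5 in both genotypes.

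The change from E16.5 to E18.5 went mostly the same way with and without Fzd6. As processed here, more probes passed the test without it. With the arrays also scaled to a common spread the order turned, with 2763 called in KO and 3541 in wild type. In a separate fit of each genotype's own arrays at these stages, 7756 were called in KO and 196 in wild type. The median SD was 0.16 and 0.20 in the wild-type groups, against 0.12 in both KO groups. The WT stages shared a slide only for replicate 3. Whether spread or slides account for the counts was not tested. In wild type 4854 probes were called (17.3%), 42.6% of them higher, with 309 at least 2-fold higher and 295 at least 2-fold lower. Without WT E18.5 replicate 1 there were 6527, 55.4% of them higher, with 546 and 269 at least 2-fold. No array is shared between the KO and WT steps. Over the 27989 probes the steps correlated at r = 0.54 (Spearman's rho 0.47), across probes that are not independent and that share the reference, and at r = 0.565 without that array. Of the probes called higher in KO, 1143 were called higher in wild type, 29.6% of the KO list and 55.3% of the wild-type list. Of those called lower, 1117 were shared, 30.5% and 40.1%. Of all tested probes 7.38% were called higher and 9.96% lower in wild type. Called in opposite directions were 129 probes that rose in KO and fell in wild type, and 14 that fell in KO and rose in wild type. Without WT E18.5 replicate 1 these were 119 and 49, and the probes called higher in both numbered 1815.

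Tested directly, the KO step differed from the WT step at 1727 probes (6.17%): it lay above the WT step at 1237 (4.42%) and below it at 490 (1.75%), with 615 and 84 of these differing at least 2-fold. Without WT E18.5 replicate 1 there were 2189 called, 1273 above and 916 below. The number rose to 2762 without WT E18.5 replicate 2, and fell to 1002 without WT E16.5 replicate 1, to 1089 without KO E18.5 replicate 2 and to 1114 without KO E16.5 replicate 2. Other settings moved it further: 588 were called with slide as a fixed term and 576 with the arrays scaled to a common spread. In a fit of the arrays compared only there were 666, and 142 with the replicate number as a block in that fit. The share above was 71.6% in the fit reported here. Where background was not subtracted it was 59.4%, and where arrays were centred on their median 99.3%, of only 138 called. From the signals that Agilent's software had processed it was 51.7%, in the authors' value table an even 50% and in the Cy3 channel alone 48.8%. The split was thus near even under these last 3 settings. Of these, the value table and the processed signals hold nearly the same values, so they are not separate evidence.

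Of the 1237 probes whose KO step lay above, 642 were called higher in KO and not called in wild type, 295 were called lower in wild type and not called in KO, 140 rose in both, and 129 rose in KO and fell in wild type. Of the 490 below, 335 were called lower in KO and not called in wild type, 80 were called higher in wild type and not called in KO, 44 fell in both, and 14 fell in KO and rose in wild type. At 119 of the 143 probes with opposite calls the arrays of the stages overlapped in neither genotype, 108 of them rising in KO. Taken singly, the KO arrays did not overlap at 97.1% of probes called in KO and 45.1% of all tested probes. For wild type these shares were 87.6% and 24.5%, so most called probes had this trait. Without WT E18.5 replicate 1 the first 4 numbers were 605, 322, 174 and 119, and the second 4 were 467, 315, 41 and 49.

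**Figure D4:**
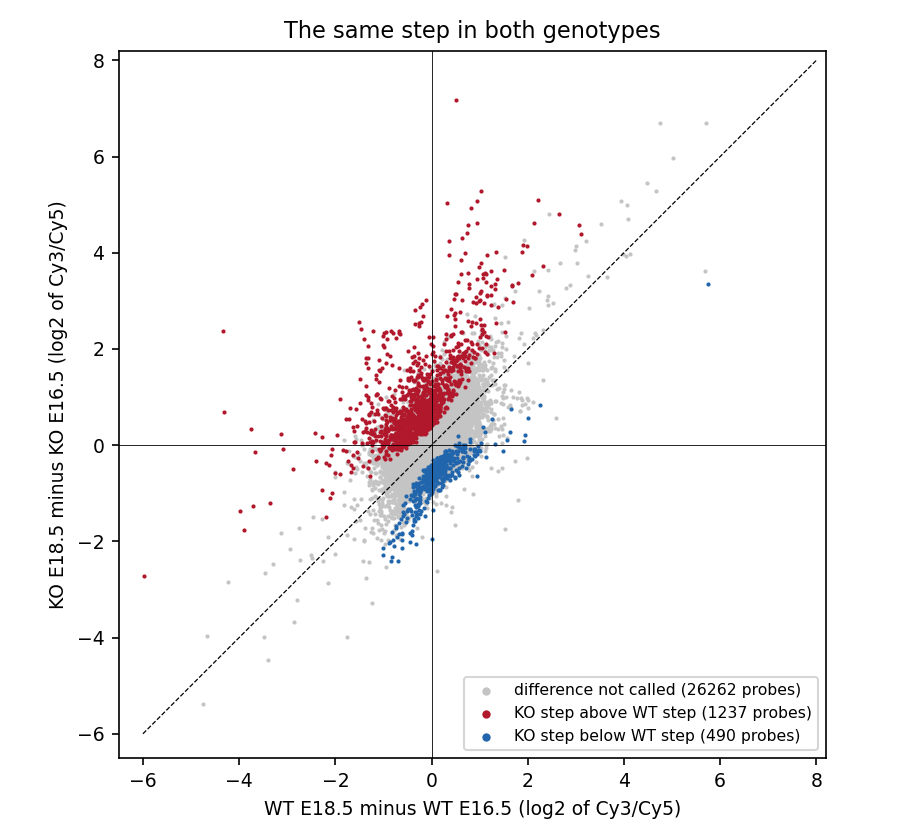
Each dot is 1 of 27989 tested probes, with the WT step on the x axis and the KO step on the y axis (both log2 of Cy3/Cy5, E18.5 minus E16.5); the dashed line marks equal steps and colour marks a called difference. Red dots (1237) lie above the line and blue dots (490) below it, and Z00040994-1 is the dot highest on the y axis, at a KO step of 7.17 and a WT step of 0.51.

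Probes with the largest differences between the genotypes, or with opposite directions, are shown by sequence so that their courses can be traced. For Z00040994-1, printed above, the KO step exceeded the WT step by 6.65 ± 0.62 (SE; limma, adjusted p = 2.23e-05), the largest such difference among probes above background on all 12 arrays with step ranges that did not overlap. With the arrays also scaled to a common spread this difference was 2.48 and not called (limma, adjusted p = 0.78).
Z00026015-1: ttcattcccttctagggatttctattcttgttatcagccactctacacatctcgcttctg
Z00025996-1: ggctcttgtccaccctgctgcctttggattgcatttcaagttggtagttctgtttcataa
Z00040631-1: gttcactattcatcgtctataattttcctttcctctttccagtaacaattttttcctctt
Z00031974-1: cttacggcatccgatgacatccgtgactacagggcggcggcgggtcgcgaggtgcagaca
Z00004176-1: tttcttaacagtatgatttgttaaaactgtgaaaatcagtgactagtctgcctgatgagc

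For Z00026015-1 the difference lay in wild type, where it fell. KO levels were 4.18, 3.44 and 4.59 at E16.5 and 4.36, 3.68 and 6.24 at E18.5. The KO arrays overlapped, and the KO step of 0.69 was not called (adjusted p = 0.431). Wild-type levels fell from 6.93, 6.78 and 6.97 to 2.27, 4.07 and 1.40. The difference between the steps was 5.01 ± 0.83 (SE; adjusted p = 0.00222), and with Agilent's processed signals it was 1.14 and not called (adjusted p = 0.34).

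For Z00025996-1 the difference lay in KO, where it fell. It stood at 1.1, 0.66 and 1.04 in KO E16.5 and at -0.78, -1.09 and -1.20 in KO E18.5. In wild type it was between 0.14 and 0.41 on all 6 arrays of these stages. The KO step was -1.96 ± 0.17 (SE; adjusted p = 1.23e-06), the WT step was 0.02, and the difference was -1.97 ± 0.24 (SE; adjusted p = 0.000239). In KO at E14.5 it had been lower, at -0.53, -0.90 and -0.16, so the KO arrays rose and fell while the wild-type arrays stayed within a narrow range.

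Z00040631-1 moved in opposite directions. It stood at 0.60, 0.20 and 0.91 in KO E16.5 and at 1.63, 1.76 and 5.44 in KO E18.5, where replicate 3 was far above the others. Wild type fell from 5.49, 4.16 and 5.24 to 0.39, 1.27 and 0.20. The KO step was 2.37 ± 0.70 (SE, limma, adjusted p = 0.0203) and the WT step -4.34. Only 2 arrays of KO E16.5 and 2 of WT E18.5 were above background for this probe, so the sizes of both steps depend on the background correction. Within the first scan batch, which holds replicates 1 and 2, the KO step was 1.29 and not called (adjusted p = 0.0525). Without KO E16.5 replicate 2 it was 2.19 and not called (adjusted p = 0.0713).

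Z00031974-1 crossed in the same sense with tighter replicates: -0.08, -0.10 and 0.21 in KO E16.5 against 2.09, 2.71 and 2.93 in KO E18.5. In wild type it fell from 2.62, 2.37 and 1.69 to 0.66, 1.09 and 0.38. The KO step of 2.57 ± 0.33 (SE; adjusted p = 4.65e-05) and the WT step of -1.51 differed by 4.08 ± 0.47 (SE; adjusted p = 0.000128). KO E18.5 reached about the level of WT E16.5, with means of 2.58 and 2.22.

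In the other sense, Z00004176-1 went from 1.30, 1.36 and 1.19 in KO E16.5 to 0.69, 0.53 and 0.73 in KO E18.5. Wild type went from -0.81, -0.55 and -0.84 to 0.00, 0.16 and 0.46. KO arrays were above wild-type arrays at both stages, by a mean of 1.29 against -0.73 at E16.5 and of 0.65 against 0.21 at E18.5. The steps differed by -1.58 ± 0.20 (SE; adjusted p = 0.000252). The second probe of this kind, Z00052141-1, had smaller steps, -0.61 in KO and 0.57 in wild type, and its KO step was not called without KO E16.5 replicate 2 (-0.44, adjusted p = 0.0834).

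**Figure D5:**
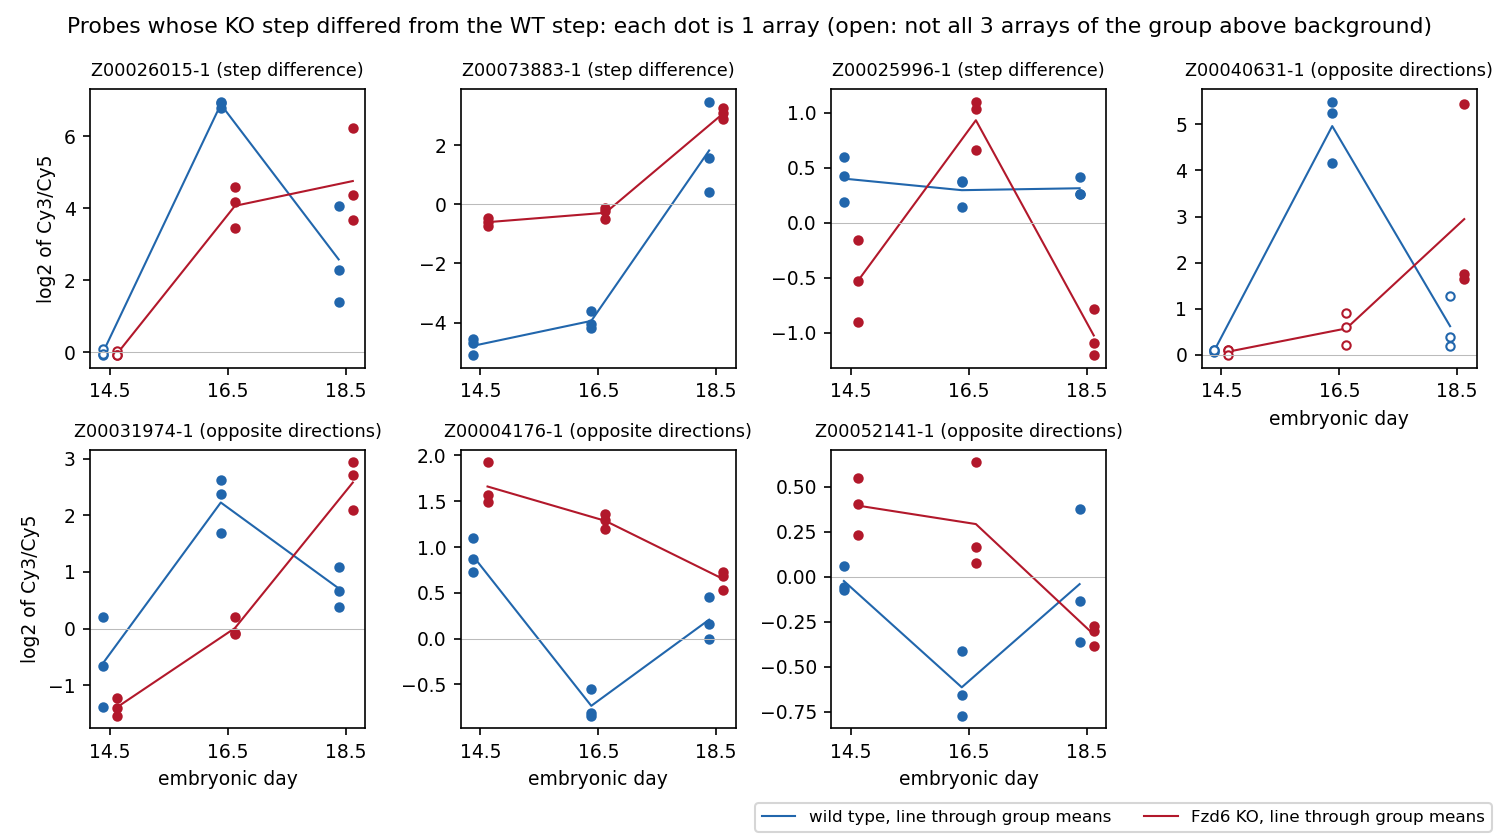
Levels (log2 of Cy3/Cy5, y axis) against embryonic day (x axis) for 7 probes whose KO step differed from the WT step, 1 dot per array, red for Fzd6 KO and blue for wild type, with lines through the means of 3 arrays and open dots where not all 3 arrays of the group were well above background. The lines of Z00031974-1 cross between E16.5 and E18.5, and 1 KO E18.5 array of Z00040631-1 (5.44) stands far above the other 2.

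Many probes overlap in sequence, so they are not independent: such probes may read the same transcript, a close copy or a shared repeat, which was not tested. Among the tested probes 1058 pairs, made of 1722 probes, shared a run of at least 20 bases. Within a pair the KO steps differed by a median of 0.05. In 96 pairs at least 1 probe was called with a 2-fold change, and in all 96 both steps had the same sign. In 74 of them both probes were called at least 2-fold, in 11 only 1 probe was called, and in 0 were both called in opposite directions. Linked groups of 3 or more numbered 72, of which 44 had no called member. In 7 every member was called higher, in 4 every member was called lower, and 0 had calls in both directions. Of all tested probes 13.8% were called higher and 13.1% lower.

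Every member was called with at least a 2-fold change in 4 of these groups, 3 of them rising. The members of 1 rising and 1 falling group are printed here to show how far their probes overlap. The groups were chosen after their values were seen. Capitals mark the run of bases that all members of a group share, and for the second group 3 of its 8 members are given.
Z00023905-1: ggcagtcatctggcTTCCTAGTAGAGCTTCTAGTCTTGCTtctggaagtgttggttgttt
Z00057869-1: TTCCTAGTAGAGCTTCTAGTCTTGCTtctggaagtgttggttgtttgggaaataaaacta
Z00075199-1: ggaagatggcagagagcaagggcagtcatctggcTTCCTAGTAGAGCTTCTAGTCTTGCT
Z00075783-1: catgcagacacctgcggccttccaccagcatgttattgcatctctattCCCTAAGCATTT
Z00063676-1: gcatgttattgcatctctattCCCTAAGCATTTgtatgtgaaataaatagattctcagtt
Z00075784-1: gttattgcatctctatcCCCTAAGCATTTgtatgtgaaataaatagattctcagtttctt

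The 3 probes of the rising group overlap along 1 stretch. Z00023905-1 stood at -0.39, -0.23 and 0.10 in KO E16.5 and at 3.73, 2.27 and 3.11 in KO E18.5. In wild type it was 3.26, 2.79 and 3.31 at E16.5, about the later KO level, and 3.74, 3.99 and 4.70 at E18.5. KO steps of the 3 probes were 3.07 to 3.92 and WT steps 0.92 to 1.53. The difference was called at 2 of the 3, with adjusted p of 0.00379 to 0.0581. The order of the KO E18.5 arrays, replicate 1 highest and replicate 2 lowest, was the same in all 3 probes.

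The falling group holds 8 probes, of which 2 (Z00075781-1 and Z00076172-1) are identical in sequence. Z00075783-1, which reaches furthest to the 5′ side, stood at 0.57, 1.51 and 0.69 in KO E16.5 and at -0.56, -0.64 and -0.73 in KO E18.5. Its wild-type levels were -0.11, 0.11 and -0.25 at E16.5 and -0.12, -0.73 and -0.45 at E18.5. All KO E16.5 arrays were above all wild-type arrays of both stages. KO steps of the 8 probes were -1.57 to -1.06 and WT steps -0.34 to -0.23, and the difference was called at 7 of the 8 (adjusted p 0.00919 to 0.0674). Among the arrays of these 2 stages, KO E16.5 replicate 2 was the highest for every one of the 8 probes. At E14.5 Z00075783-1 had been higher in wild type, at 1.74, 1.38 and 1.68, than in KO, at 0.81, 0.39 and 0.70.

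A further rising group, Z00026043-1, Z00026084-1 and Z00060172-1, shares 28 bases. Z00026084-1 stood at 0.82, 1.58 and 2.19 in KO E16.5 and at 4.30, 4.33 and 4.08 in KO E18.5, against 3.38, 3.23 and 3.54 in WT E16.5 and 3.15, 3.91 and 4.51 in WT E18.5. KO steps of the group were 2.12 to 2.71, WT steps 0.48 to 0.63, and the difference was called at all 3 probes (adjusted p 0.00573 to 0.0157). In the remaining group, with Z00022747-1, the steps were closer: 1.85 to 2.27 in KO and 1.45 to 1.55 in wild type, with the difference called at 0 of 3 (adjusted p 0.118 to 0.338). Without WT E18.5 replicate 1 the difference was called at 2 of 3, 5 of 8, 3 of 3 and 0 of 3 probes of these groups, in the order given.

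An overlapping pair showed a level that differed between genotypes more than the step did. These probes are printed because they share 53 bases, in capitals, and 1 of them is the named probe whose KO step lay furthest below its WT step.
Z00073883-1: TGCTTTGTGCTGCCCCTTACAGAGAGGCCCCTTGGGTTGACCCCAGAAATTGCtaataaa
Z00071847-1: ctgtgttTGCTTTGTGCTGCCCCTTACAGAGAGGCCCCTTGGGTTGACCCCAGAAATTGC
Z00073883-1 stood at -0.23, -0.50 and -0.14 in KO E16.5 and at 3.25, 3.07 and 2.89 in KO E18.5. In wild type it was far lower at E16.5, at -4.16, -3.62 and -4.04, and reached 1.56, 3.46 and 0.42 at E18.5, with arrays that scattered widely. Both steps were rises, 3.36 ± 0.48 (SE) in KO and 5.76 in wild type. Their difference of -2.40 ± 0.68 (SE) was called by a narrow margin (adjusted p = 0.0478). It was not called without any 1 of the KO E16.5, KO E18.5 or WT E16.5 arrays, with adjusted p of 0.0505 to 0.113. Its partner Z00071847-1 had steps of 3.62 and 5.69, and the difference of -2.07 was not called (adjusted p = 0.0799), nor without WT E18.5 replicate 1 (adjusted p = 0.076). The gap at E16.5 was there at E14.5 too, with means of -0.61 in KO and -4.78 in wild type.

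The letters AATAAA were, on the printed strand, present in 14.52% of the probes that fell at least 2-fold, 11.1% of those that rose at least 2-fold and 7.69% of all tested probes, and on either strand in 16.8%, 14.6% and 10.6%. ATTTA, the core letters of AU-rich elements known from unstable transcripts, was on the printed strand in 8.71%, 5.56% and 7.24%. The median GC content was 43.3% for falling probes, 45.0% for rising probes and 45.0% for all tested probes. These are descriptions of the probes with no test, and overlapping probes count more than once.

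A few probes can be placed on the genome, since their 60 bases match RefSeq windows of GRCm38.p6 that run from 250 bases before to 50 after a gene's start. Of the 267 that match, 257 did so at 1 place, 167 of these were tested and 28 were called in the KO step, 21 higher and 7 lower (16.8% of the 167, against 26.9% of all tested probes). Such a match gives a position and does not say which transcript the probe reads. The largest rise among them is printed for its opposite course in wild type.
Z00067713-1: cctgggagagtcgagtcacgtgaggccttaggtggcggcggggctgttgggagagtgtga
Z00067713-1 lies at chr16:45158742-45158801, on the plus strand, from 87 to 28 bases before the start of Atg3, which encodes an enzyme that attaches lipid to autophagy proteins, and on the strand of that gene. It also lies 128 to 69 bases before the start of Slc35a5, a member of a family of nucleotide sugar transporters, which runs the other way. It stood at 1.35, 0.99 and 1.74 in KO E16.5 and at 3.38, 3.83 and 3.65 in KO E18.5, while wild type went from 2.90, 2.65 and 2.34 to 1.23, 2.24 and 1.42. The KO step was 2.26 (adjusted p = 5.68e-06), the WT step -1.01 and the difference 3.27 (adjusted p = 4.75e-05), or 3.07 without WT E18.5 replicate 1 (adjusted p = 7.17e-05). The next largest rise, Z00063945-1, lies across the start of Cfap410 at chr10:77978615-77978674 and went from -0.32, -0.75 and 0.17 to 1.58, 1.80 and 0.76 in KO (step 1.68, adjusted p = 0.0124). Its difference from the WT step was not called (1.60, adjusted p = 0.159). The falls were smaller: Z00075139-1, before the start of Cox16, had a KO step of -0.63 and Z00044170-1, before the start of Vmac on the opposite strand, one of -0.59.

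As a measure of the whole profile, each KO array was placed on a line through the wild-type means, with 0 at WT E14.5 and 1 at WT E18.5, over the tested probes with values on all arrays. KO E16.5 arrays lay at 0.35, 0.46 and 0.42 (0.41 ± 0.05, SD, n = 3) and KO E18.5 arrays at 0.94, 0.96 and 0.90 (0.93 ± 0.03, SD, n = 3). The stages did not overlap, and the KO arrays moved 0.52 of the wild-type distance in this interval. The exact two-sided permutation test gave p = 0.1, the smallest that 3 against 3 arrays allow. The move was 0.54 within the first scan batch and 0.48 within the second, which holds 1 array per stage.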

How the data were processed

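Per the file headers, Agilent Feature Extraction 9.5.1.1 wrote the deposited scanner output: spot intensity and local background per channel, a log10 ratio of Cy5 over Cy3, and flags. The authors' value table, deposited on a log10 scale by its fit to the scanner values (r = 0.991 to 1.000, KO column medians 2.46 to 2.48, added constant unknown), was an alternative only. With limma 3.58.1 (R 4.3.3), intensities went through normexp (offset 50) and loess within arrays, 1417 control spots of 43451 and outlier spots were left out, and lmFit and eBayes fitted a mean for each of the 6 groups over all 18 arrays (two-sided, Benjamini-Hochberg over 27989 probes). Members and lists were chosen with earlier results of these data known.

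Named probes are the 2 largest rises and 2 largest falls with adjusted p under 0.05 and arrays that do not overlap, for the KO step, for probes measured at 1 KO stage only (by bound), for the step difference, and for opposite directions. For the step difference, non-overlap means that every possible KO step lay on 1 side of every possible WT step. That bound, used only to rank, is the bright mean over the dimmest measured signal in Cy3 after Aquantile normalization. Other named probes (overlapping groups, windows at gene starts) were chosen after their values were seen. On simulated data over 27989 probes, with even noise, 82% of changes of 1 and 42% of changes of 0.5 on the log2 scale were found for the KO step, and 70% and 22% for the step difference.

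Alternatives were other background corrections and normalizations, filters, fits, slide, scan batch and replicate terms, and leaving out each array. Gene lists, the Fzd6 probe and cell type markers of the planned design were not analysed here, because no table used here pairs the probe IDs with genes. The number of arrays limits the precision.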

Additional observations from a re-analysis of the deposited data

Results flagged for a closer look

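The change from E16.5 to E18.5 differed between the genotypes by a direct test (limma, step difference, adjusted p under 0.05) at 1727 probes. The probes of this kind that the text names had KO-minus-WT step differences of 6.65 for Z00040994-1, 5.01 for Z00026015-1, -2.40 for Z00073883-1 and -1.97 for Z00025996-1. With opposite directions in KO and wild type they were 6.72 for Z00040631-1, 4.08 for Z00031974-1, -1.58 for Z00004176-1 and -1.19 for Z00052141-1. For Z00040631-1 the wild-type arrays fell by 4.34 on the log2 scale while 1 KO E18.5 array, at 5.44, lay far above the other 2, at 1.63 and 1.76. Not all arrays of KO E16.5 or of WT E18.5 were above background for this probe, so the size of its difference depends on the background correction. WT E18.5 replicate 1 stands apart from its group. Without it these 8 differences were 6.33, 4.85, -2.53, -2.0, 6.60, 4.05, -1.68 and -1.23 in the same order, and all 8 were still called (adjusted p 4.04e-05 to 0.0466).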

How the results depend on the processing

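The KO step called 7524 probes and stayed within 1.5 times that number under every alternative run except median centring (2597) and scaling between arrays (2763); leave-one-out gave 5121 to 8583. In the Cy5 channel alone, which held the same reference on every array, the KO step called 421 probes, 327 of them called in the ratio too, 95.4% of those with the same sign. The 4854 calls of the WT step became 8625 where background was not subtracted, 8535 from Agilent's processed signals, 663 with median centring, 7756 in the Cy3 channel alone, 196 in a fit of the arrays compared, 1061 with array weights, 1458 with slide as a fixed term and 2207 within the first scan batch, with leave-one-out at 1705 to 6527. The 1727 calls of the step difference became, in the same order, 3401, 2889, 138, 3546, 666, 994, 588 and 568, and 576 with scaling between arrays, with leave-one-out at 1002 to 2762. Of the probes called within the first scan batch, the second batch had the same direction at 95.03% for the KO step and 94.2% for the step difference, against 73.8% and 68.4% of all tested probes. The causes of these differences were not tested. Without WT E16.5 replicate 2 and WT E18.5 replicate 1 together, an alternative added after seeing the data, the KO step called 9237 probes and the step difference 2163. The move of KO arrays along the wild-type line was 0.47 with Agilent's processed signals and 0.47 with the value table, and 0.50 to 0.55 in leave-one-out of the KO arrays. The line itself was not redrawn without WT E18.5 replicate 1 or any other wild-type array.

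KO arrays of the same replicate number, which also share a slide, deviated together at r = 0.10, 0.14 and 0.19, each best with its own number, a hint from the data and not the design. With the replicate number as a block in all arrays the KO step called 7250, the WT step 4609 and the step difference 1597; with the block in the arrays compared only these were 8193, 3 and 142.

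For the 15 named probes, the KO step kept its side of the threshold in 355 of 367 values under alternatives and lost it in 12. The step difference kept it in 399 of 442, lost it in 26 and gained it in 17. These 442 include probes whose difference was not called as reported, which count as kept where they stayed uncalled, whatever the sign. That of Z00028697-1 went from 1.95 to -2.99 under scaling between arrays. All 26 losses fall on differences that were called as reported. No direction that was called reversed. Under scaling between arrays 7 KO steps were not called: Z00040994-1 (6.15, adjusted p = 0.212), Z00028697-1 (5.69, 0.22), Z00076319-1 (5.13, 0.299), Z00071978-1 (5.75, 0.232), Z00073883-1 (2.90, 0.0535), Z00040631-1 (2.05, 0.106) and Z00052141-1 (-0.54, 0.0687).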
